A study of Mus musculus with 185 samples.

Results

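The genes of oxidative phosphorylation were read in the brains of fed, fasted and high-fat-fed mice, in the nuclear and the mitochondrial genome. Members were taken by symbol among annotated protein-coding genes: the Nduf genes, Sdha to Sdhd, the Uqcr genes, Cox4 to Cox8, the Atp5 genes and the mt- genes. This gave 111 of the 57010 genes of the count table, 98 of them nuclear and 13 mitochondrial. By role the nuclear genes were 38 of complex I, 4 of complex II, 8 of complex III, 21 of complex IV, 18 of complex V, 8 Ndufaf assembly factors and Atp5if1, the inhibitor of complex V. The mitochondrial genes were 7 of complex I, 1 of complex III, 3 of complex IV and 2 of complex V.

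All mice were male C57BL/6J, 8 weeks old. In the 16 h study mice were housed in pairs, and for 16 h 6 had chow, 6 had no food and 6 were switched to a high-fat diet (HFD). In the 24 h study mice were housed singly, and for 24 h 9 had chow and 10 had no food. RNA-seq with depletion of ribosomal RNA was run on 5 brain regions of each mouse: the hypothalamus, the hippocampus, both colliculi and either the frontal cortex (16 h) or the zona incerta (24 h). The 5 count columns of a mouse carry the mouse and not the region, so they were added up and the mouse was the replicate. A level is given per 1000000 counts of the mouse (CPM). The 2 studies differed in housing, time and regions and were not set against each other.

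Complexes I to IV pass electrons from NADH and succinate to oxygen and, at complexes I, III and IV, pump protons out of the mitochondrial matrix. Complex V, the ATP synthase, lets the protons back and makes ATP. Complex II is made in full from nuclear genes, while the other complexes combine nuclear subunits with core subunits made inside the mitochondrion from its own small genome. Neurons spend much of their ATP on restoring ion gradients and rely on this pathway. In bulk tissue, fewer cells of a type and less RNA per cell cannot be told apart.

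The mitochondrial genes were counted very unequally. In the 24 h study mt-Nd1, mt-Nd2, mt-Co1, mt-Nd4, mt-Nd5, mt-Nd6 and mt-Cytb had means from 172 to 9647 CPM. The other 6 genes, mt-Co2, mt-Atp8, mt-Atp6, mt-Co3, mt-Nd3 and mt-Nd4l, lie next to each other in the same genome and had means from 0.00965 to 0.649 CPM. In the 16 h study the same 7 genes had means from 60.3 to 5091 CPM and the same 6 from 0 to 0.0662 CPM. These genes are read from long shared transcripts, so the sequence around them was examined. A stretch of chromosome 1, chr1:24650616-24655269 in GRCm39 on the reverse strand, copies bases 6390 to 11042 of the mitochondrial genome. The aligned 4654 positions were 99.936% identical, with 2 substitutions, A6393T in mt-Co1 and T9461C in mt-Nd3 (the mitochondrial base first, then its position in the mitochondrial genome, then the base of chromosome 1), and 1 gap. Of all windows of 61 bases, the read length of the 24 h study, 99.0% to 100% were also found in a nuclear chromosome for the 6 low genes. For the 7 others the share was 0 for mt-Nd1, mt-Nd6 and mt-Cytb, 4.14% for mt-Nd5, 7.06% for mt-Nd2, 46.1% for mt-Co1 and 61.9% for mt-Nd4.

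The first 61 bases of mt-Co2 (chrM:7013-7073, forward strand) and of the copy (chr1:24654586-24654646, reverse strand) show what a read of that length would meet, and they are the same letter for letter. The first 61 bases of mt-Cytb (chrM:14145-14205, forward strand), a gene with high counts, are set beside a nuclear stretch (chr4:79922226-79922286, forward strand). It lies in the longest nuclear match that covers these bases, and capitals mark the 4 positions at which the letters differ.
mt-Co2, mitochondrial: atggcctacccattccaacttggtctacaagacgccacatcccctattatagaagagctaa
mt-Co2, chromosome 1: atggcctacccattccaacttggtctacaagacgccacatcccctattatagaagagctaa
mt-Cytb, mitochondrial: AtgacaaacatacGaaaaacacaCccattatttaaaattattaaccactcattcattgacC
mt-Cytb, chromosome 4: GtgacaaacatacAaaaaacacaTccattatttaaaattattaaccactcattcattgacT

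The 7 pseudogenes annotated in the copy had a summed mean of 1.58 CPM in the 16 h study and 4.18 CPM in the 24 h study. Values of the 6 low genes are therefore given here only as listed counts, and the mitochondrial genome is described by the other 7. By the methods genes were counted in the GeneCounts mode of STAR. How that mode treats reads that match 2 places is not described in the sources used here.

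**Figure D1:**
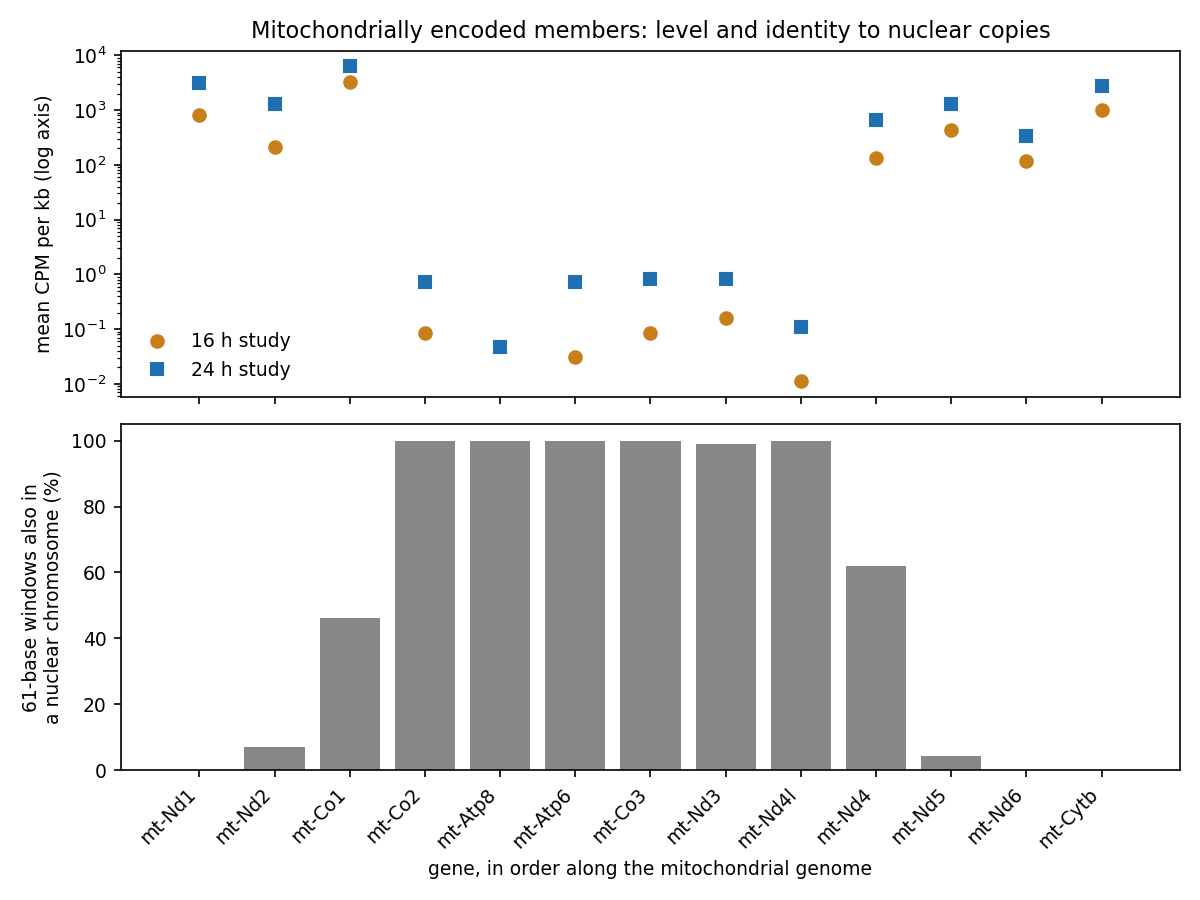
Mean CPM per kilobase of each gene in each study (upper panel, log axis, without mt-Atp8 of the 16 h study, which had no count) and the share of 61-base windows also found in a nuclear chromosome (lower panel, %), with the 13 genes in their order along the mitochondrial genome. The 6 genes with shares of 99.0% to 100% are the 6 with a mean under 1 CPM per kilobase.

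Levels were compared between genes only as CPM per kilobase of the canonical transcript. On that scale in the 24 h study mt-Co1, the catalytic subunit of complex IV, stood highest at 6244 CPM per kilobase, followed by mt-Nd1 at 3159 and mt-Cytb at 2721. The highest nuclear member was Atp5f1b, the catalytic beta subunit of complex V, at 431 CPM per kilobase. Among the nuclear members of each complex, Cox8a of complex IV led at 290 and Sdha, the flavoprotein of complex II, at 108. Uqcr10 led the nuclear members of complex III at 106 and Ndufa3 those of complex I at 96.0 CPM per kilobase. In the 16 h study mt-Co1 stood highest at 3295, followed by mt-Cytb at 982 and mt-Nd1 at 799 CPM per kilobase. The leading nuclear members of the complexes were Atp5f1b at 358, Cox8a at 197, Sdha at 93.2 and Uqcrc1 of complex III at 82.9. In complex I this was Ndufv1, the NADH-binding subunit, at 61.6 CPM per kilobase.

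Several subunits of complex IV exist as a common form and a form best known from muscle or other tissues. The common form had far the higher level per kilobase in all of them. At 24 h Cox6a1 had 215 CPM per kilobase and Cox6a2, the heart and muscle form, 5.53. Cox4i1 had 284 and Cox4i2, the lung form, 1.18. Cox7a2 had 89.8 and Cox7a1, the muscle form, 3.71, while Cox8a had 290 and Cox8b 0.195. Ndufa4, a subunit of complex IV despite its name, had 197 CPM per kilobase and its relative Ndufa4l2, known as a gene induced by low oxygen, 1.56. The common form led in the 16 h study as well, with 99.6 for Cox6a1 against 1.24 for Cox6a2, 152 against 1.01 for Cox4i1 and Cox4i2, and 95.5 against 1.49 for Ndufa4 and Ndufa4l2. The c ring of complex V is built from 1 protein encoded by 3 genes, and in the 24 h study Atp5mc3 had 117, Atp5mc1 104 and Atp5mc2 14.4 CPM per kilobase. Atp5if1 had 26.4.

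Promoters were read from the RefSeq table on GRCm38.p6, from 250 bases before to 50 bases after each start. It matched 76 of the 110 member symbols, with 81 promoters. Motifs of factors known for nuclear mitochondrial genes were searched on both strands by exact letters. GCGCATGC, from the site of NRF1, was in 12 of the 81 member promoters (14.8%) and in 2.71% of all 32851 promoters. CCGGAAG, the core of ETS factors such as GABP, was in 18 (22.2%) against 8.86% of all promoters. AAGATGGC, a site of YY1, was in 11 (13.6%) against 2.75%. These are counts of letters and say nothing of binding.

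Fasting for 24 h changed few of these genes. With edgeR's quasi-likelihood test and a Benjamini-Hochberg adjusted p under 0.05, 3 of the 106 members tested were called, 2 lower and 1 higher in fasted mice. The share of all 29011 genes tested that were called was 11.4%, with 5.78% higher and 5.62% lower, against 2.83% of the members. The 5 members not tested were Cox8c, Ndufb11b, a second gene named Atp5po, mt-Atp8 and mt-Nd4l, all with low or no counts. DESeq2 called the same 3 genes among 109 members (10.4% of all genes), and limma on the mean of the 5 columns called 1, Cox6a2 (2.89% of all genes). For 98 of the 106 members the 95% interval of the log2 fold change lay within 0.5 of 0 on either side. Complex I had 1 called member of 37 tested and complex IV 2 of 20.

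Ndufb2, an accessory subunit in the membrane arm of complex I (ENSMUSG00000002416, chr6:39569490-39595671, forward strand), fell. Its level in the 10 fasted mice had a minimum of 14.5, a median of 15.6 and a maximum of 16.8 CPM. In the 9 chow mice these were 16.8, 20.3 and 21.8 CPM. Every fasted mouse lay below every chow mouse, although the highest fasted mouse (16.75) and the lowest chow mouse (16.83) were next to each other. The fitted log2 fold change was -0.27 (SE 0.05, 95% interval -0.36 to -0.18, edgeR adjusted p = 0.000397). On levels scaled by edgeR's TMM factors the diets did overlap, since the fasted mice reached 18.9 and the chow mice started at 18.0 CPM. CPM that did not overlap between the diets was found for 1.3% of all genes tested and, among the members, for Ndufb2 alone.

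In the 250 bases before its start Ndufb2 held none of the 3 motifs above, and the bases after the start are not described. A search added after its sequence had been read found TGACGTCA, a cyclic AMP response element (CRE), whose first base lies 14 bases before the start. This CRE was in 4 member promoters (4.94%) and in 1.79% of all promoters. The 250 bases before the start (chr6:39569249-39569498 in GRCm39, forward strand) are shown because Ndufb2 was the member with the lowest p, with the CRE in capitals.
Ndufb2 promoter: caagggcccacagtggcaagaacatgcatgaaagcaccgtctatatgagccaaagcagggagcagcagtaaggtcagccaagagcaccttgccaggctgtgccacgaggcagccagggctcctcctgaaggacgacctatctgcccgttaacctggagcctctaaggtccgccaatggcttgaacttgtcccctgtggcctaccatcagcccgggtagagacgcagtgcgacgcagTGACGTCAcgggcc

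Cox6a2, the heart and muscle form of subunit 6a of complex IV (ENSMUSG00000030785, chr7:127804607-127805559, reverse strand), rose. The fasted mice had a minimum of 2.99, a median of 5.54 and a maximum of 6.95 CPM. The chow mice had 0.855, 1.77 and 5.40 CPM. The diets overlapped: 6 of 10 fasted mice lay above the highest chow mouse, and 7 of 9 chow mice below the lowest fasted mouse. The log2 fold change was 1.23 (SE 0.30, 95% interval 0.60 to 1.85, edgeR adjusted p = 0.00991). Cox6a1, the common form of the same subunit, had 81.99 to 157.1 CPM in chow mice and 90.12 to 156.8 in fasted mice, with a log2 fold change of 0.08 (SE 0.15).

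Cox6a2 lies whole within Itgad, which encodes an integrin subunit of leukocytes and is read from the other strand (chr7:127753548-127822988). The exons share 70 of the 684 exon bases of Cox6a2. Itgad rose far more: the fasted mice had 2.07, 3.96 and 5.96 CPM (minimum, median, maximum) and the chow mice 0.225, 0.248 and 0.971 CPM. All 10 fasted mice lay above the highest chow mouse, and the log2 fold change was 3.56 (SE 0.29, edgeR adjusted p = 1.09e-07). Within the 10 fasted mice the CPM of both genes went together, with a Pearson r of 0.792 (permutation p = 0.00782, two-sided, adjusted over 2 relations 0.0156) and a Spearman rho of 0.588 (permutation p = 0.0791, adjusted 0.158). Without the 2 mice farthest from the median of Itgad r was 0.570. Within the 9 chow mice r was 0.0542 (exact permutation p = 0.639) and rho 0.0333 (exact permutation p = 0.948), with r at -0.230 without 2 mice.

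By the methods the library kit described for the 16 h study was a directional one. Whether the counting used strand is not given in the sources used here. Among 190 genes with at least 99% of their exon bases under exons of a well-counted gene on the other strand, 126 (66.3%) had no count in any mouse. The share without counts was 9.85% over all genes of that length and 40.2% of 82 genes covered on the same strand. Reads of a gene and of a partner on the other strand may thus not be told apart, and whether reads of Itgad entered the count of Cox6a2 was not tested. 4931431B13Rik, another gene on the reverse strand within Itgad (chr7:127791196-127802554), also rose at 24 h. Its level was low, 0.106 to 0.429 CPM in fasted and 0.0107 to 0.0726 CPM in chow mice. The log2 fold change was 2.49 (SE 0.27, edgeR adjusted p = 2.95e-06), and whether reads of Itgad entered this count was not tested either. Of the 111 members, 68 shared exon bases with another gene and 57 with a gene on the opposite strand.

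**Figure D2:**
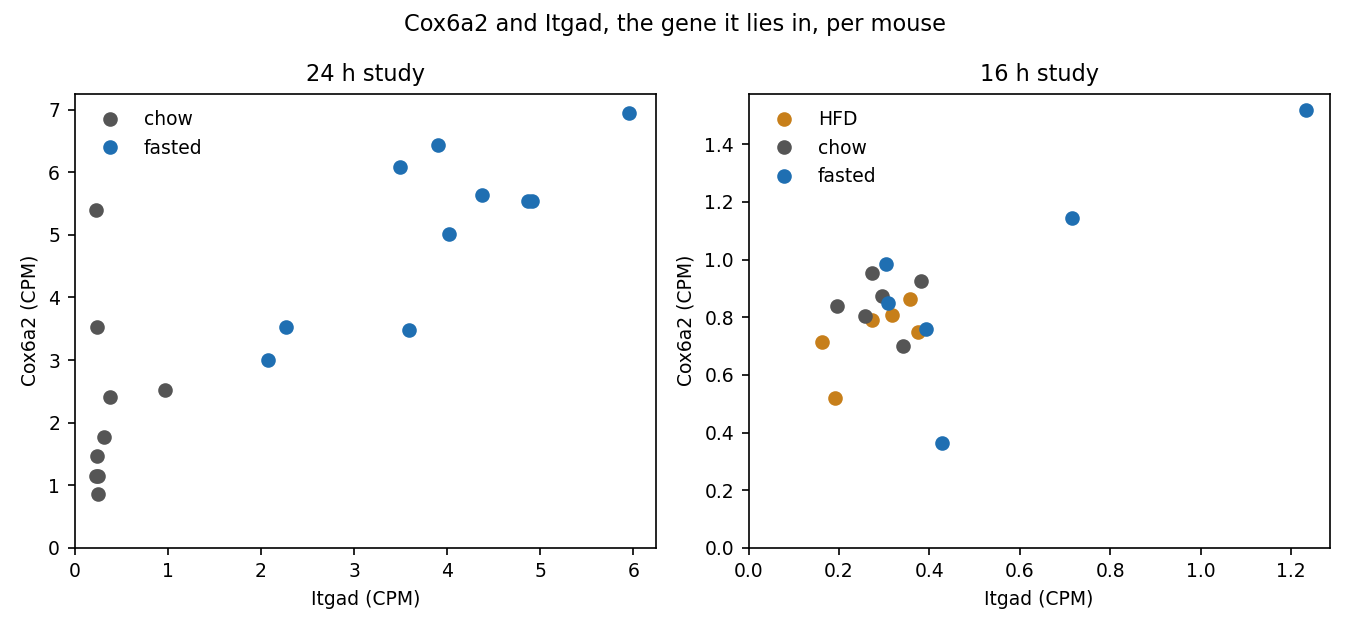
Cox6a2 against Itgad in CPM, 1 point per mouse, coloured by diet, for the 24 h study (left) and the 16 h study (right). In the 24 h study the fasted mice sit at 2.07 to 5.96 CPM of Itgad and the chow mice at or under 0.971.

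Ndufa4l2 (ENSMUSG00000040280, chr10:127350818-127353038, forward strand) fell from a low level. The fasted mice had 1.06, 1.38 and 1.54 CPM (minimum, median, maximum) and the chow mice 1.42, 1.70 and 2.31 CPM. The diets overlapped, and the log2 fold change was -0.30 (SE 0.09, 95% interval -0.49 to -0.12, edgeR adjusted p = 0.0303). Ndufa4, the member it resembles, stayed within an interval of 0.5 on the log2 scale. The call was lost without chow mouse 1431 or 1451, and without fasted mouse 1434, 1444 or 1453, with adjusted p up to 0.0665. Ndufa4l2 shared 727 of its 1148 exon bases with Shmt2, a serine hydroxymethyltransferase, which had a log2 fold change of -0.02 (edgeR adjusted p = 0.888). Ndufb2 shared 870 of 11465 exon bases with Braf, a kinase of the MAPK pathway, at 0.14 (edgeR adjusted p = 0.173).

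**Figure D3:**
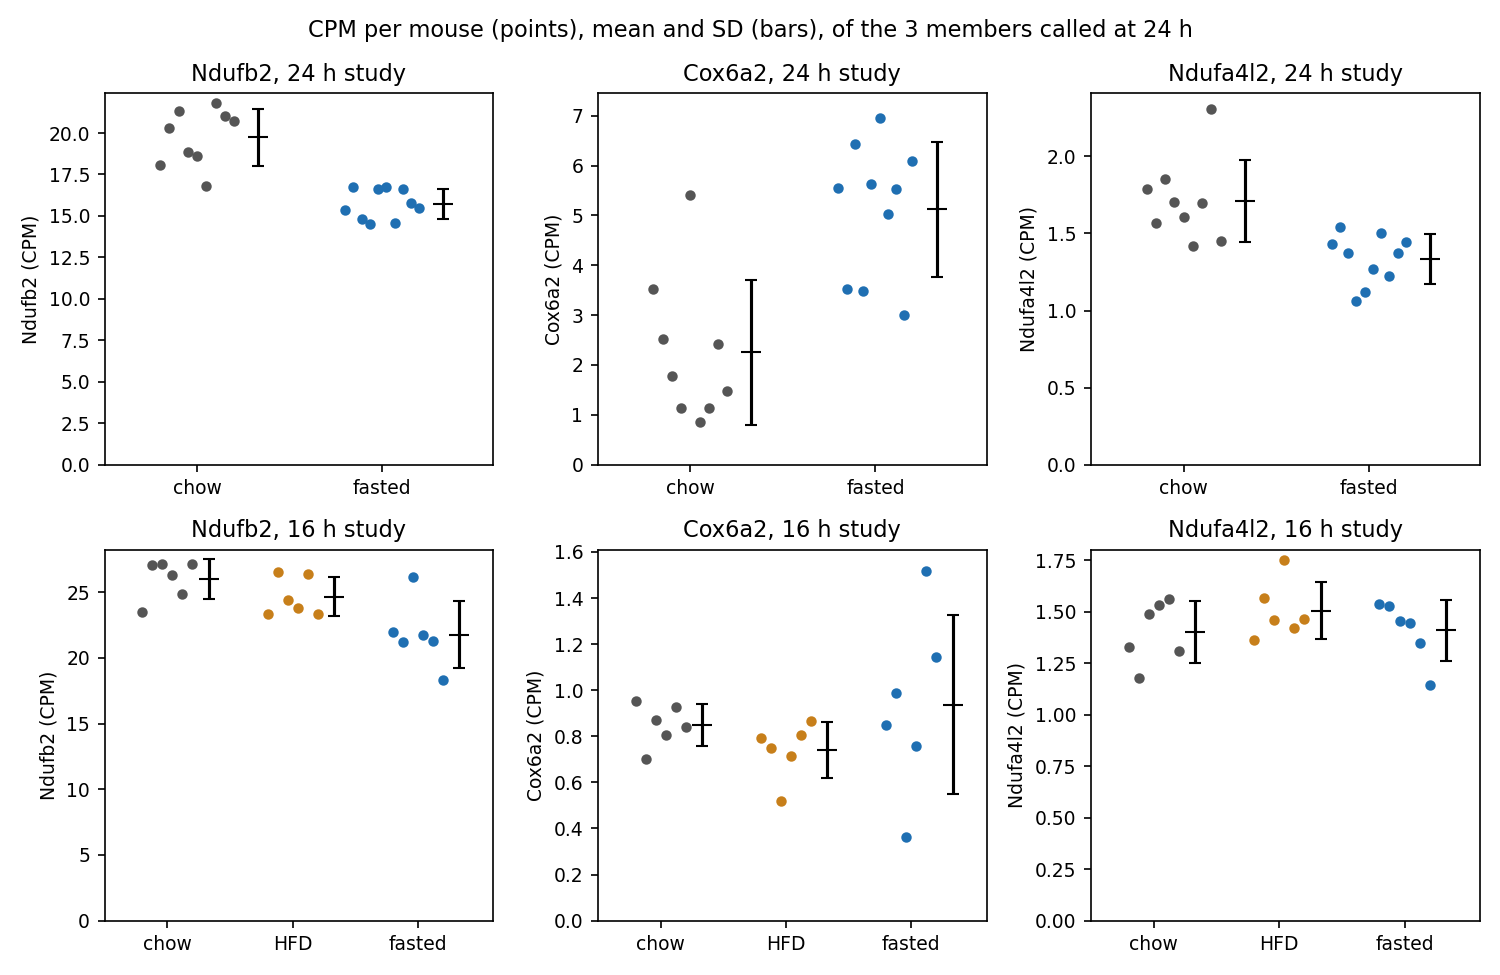
CPM of Ndufb2, Cox6a2 and Ndufa4l2 for each mouse (points) with mean and SD (bars), by diet, in the 24 h study (top) and the 16 h study (bottom). At 24 h the fasted mice had 14.5 to 16.8 CPM of Ndufb2 and the chow mice 16.8 to 21.8.

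The next members did not pass the test with all columns. Ndufab1, the acyl carrier protein that is also a subunit of complex I, had 19.4 to 22.9 CPM in fasted and 21.8 to 25.4 CPM in chow mice, a log2 fold change of -0.12 (edgeR adjusted p = 0.0762). Cox6b2, the testis form of a complex IV subunit, had a log2 fold change of -0.46 (edgeR adjusted p = 0.126). Columns with a low total or few genes found (11 of 45 in chow and 12 of 50 in fasted mice) are called low, and with these left out both passed, Ndufab1 at -0.11 (adjusted p = 0.0424) and Cox6b2 at -0.52 (adjusted p = 0.0382). The labels mark 11 chow and 13 fasted samples of the 24 h study as failed and place them on a flowcell of their own, and by the methods this block was set aside. The low columns came close to these numbers, with 11 in chow and 12 in fasted mice. Mouse by mouse the numbers of low columns and of failed samples were the same in most mice but not in all. Since a column does not give its region, these samples could not be picked out one by one. All values here include every deposited column unless low columns are said to be left out.

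The nuclear subunits of the complexes lay close to 0. The median log2 fold change of fasted against chow mice was 0.03 over 95 nuclear members tested and -0.004 over all genes. By complex it was 0.03 in complex I (30 of 37 above 0), 0.07 in complex II (3 of 4), 0.02 in complex III (5 of 8), 0.05 in complex IV (14 of 20), 0.03 in complex V (13 of 17) and -0.03 in the assembly factors (2 of 8). Atp5if1 was at 0.00. Of all 106 members 77 were above 0, against 49.0% of all genes, but this count depended on the scaling. With total counts and no scaling factors it was 45 of 106 members against 37.6% of all genes, and the median of the nuclear members was -0.02 against -0.06 over all genes. Under limma with all columns 51 of 106 members (48.1%) were above 0, fewer in share than the 56.2% of all genes. With low columns left out 86 of 106 members (81.1%) were above 0 by edgeR, against 51.1% of all genes. By limma without low columns it was 60 of 106 members (56.6%) against 36.5% of all genes. The leading members of each complex showed the same closeness: Atp5f1b had 754 to 1077 CPM in fasted and 729 to 899 CPM in chow mice, and Sdha 298.1 to 392.1 in fasted and 279 to 365 in chow mice.

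The 7 well-counted mitochondrial genes were all above 0, by 0.11 to 0.20 on the log2 scale, and none was called. edgeR gave an unadjusted p under 0.05 for 2 of them (24.2% of all genes), DESeq2 for 3 (21.0%) and limma for 0 (11.8%), and neither DESeq2 nor limma called any. mt-Nd5, a proton-pumping subunit of complex I, had 2192 to 2834 CPM in fasted and 2030 to 2545 in chow mice, a log2 fold change of 0.18 (edgeR adjusted p = 0.167). mt-Cytb, the core of complex III, had 2826 to 3684 CPM in fasted and 2592 to 3192 in chow mice, a log2 fold change of 0.20 (edgeR adjusted p = 0.210). mt-Co1 had 8301, 9261 and 12938 CPM in fasted mice (minimum, median, maximum) and 7714, 8922 and 10624 in chow mice, a log2 fold change of 0.20 (edgeR adjusted p = 0.390). The diets overlapped in all of them.

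**Figure D4:**
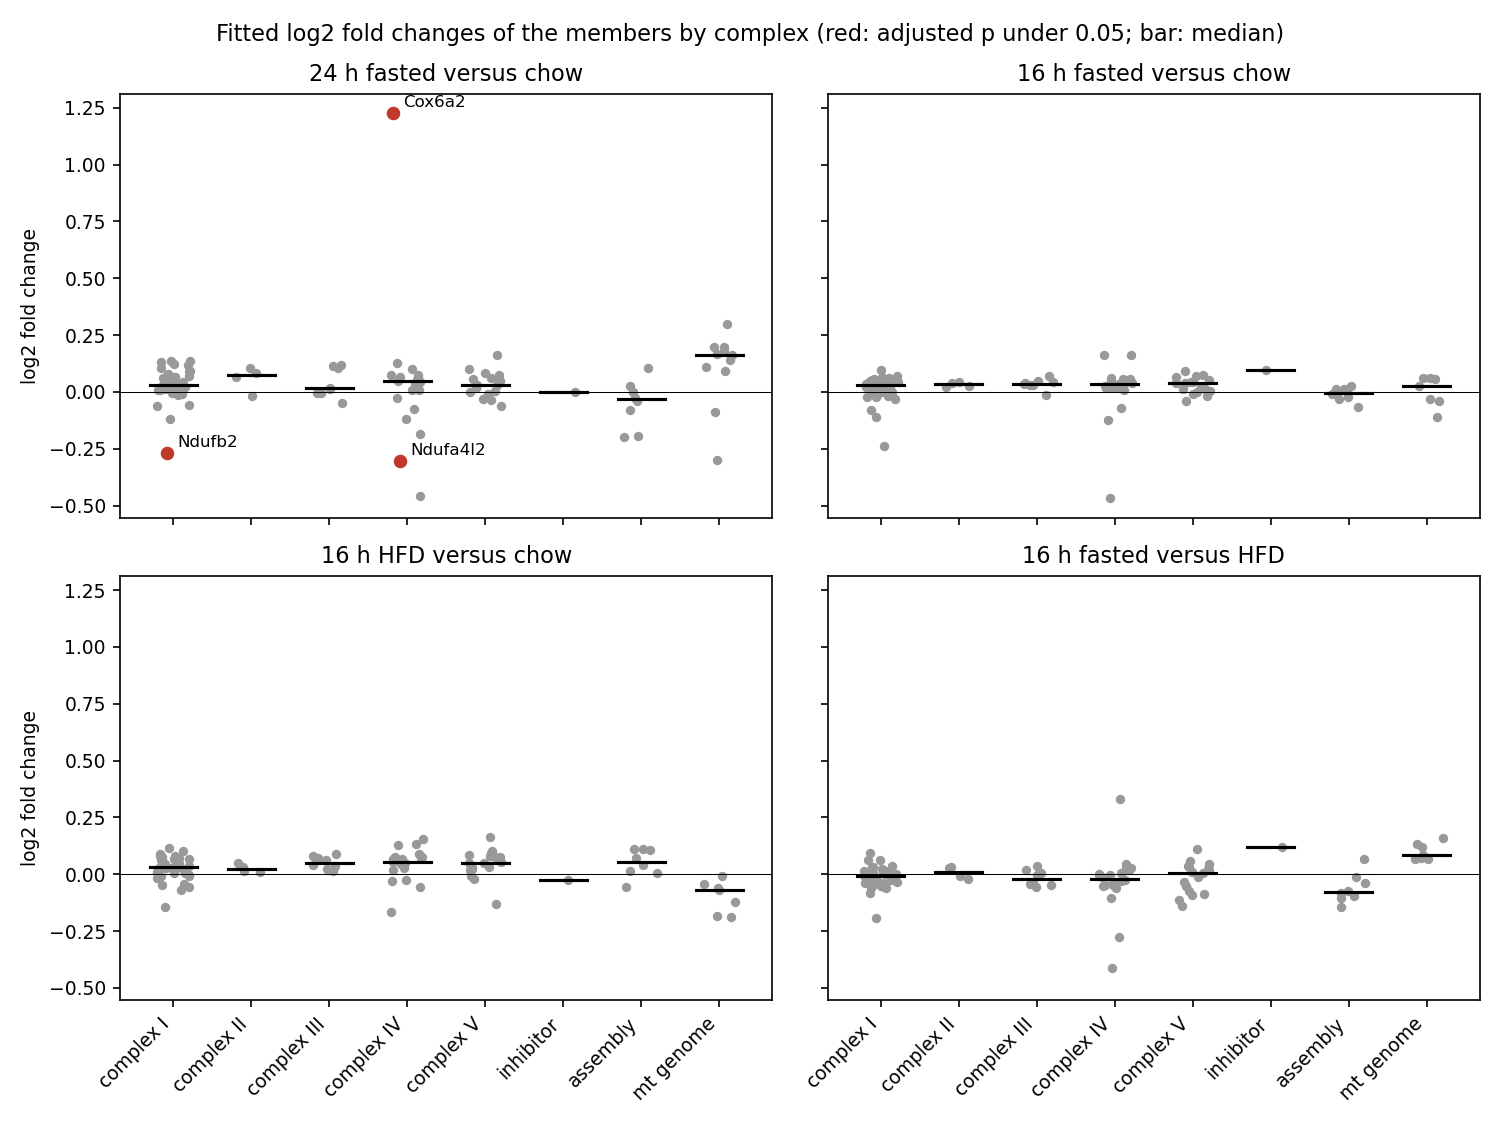
Fitted log2 fold change of each member tested, by complex for nuclear genes and together for the mitochondrial genome, in the 4 comparisons, with the median as a bar and called members in red. Ndufb2, Cox6a2 and Ndufa4l2 are called at 24 h, and the nuclear medians lie between -0.08 and 0.12.

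Summed over genes, the share of a mouse's counts on the 13 mitochondrial genes was 1.96% ± 0.167 (SD, n = 9) in chow and 2.15% ± 0.249 (SD, n = 10) in fasted mice. The 6 low genes, with means of at most 0.649 CPM, added next to nothing to it. The difference, 0.188 percentage points, was smaller than the pooled SD of 0.215, and the ranges (1.73% to 2.16% and 1.88% to 2.48%) overlapped. The nuclear members summed to 6387 ± 506 CPM in chow and 6461 ± 731 CPM in fasted mice, a difference of 73.8 against a pooled SD of 635. The mitochondrial share in the 16 h study was 0.831% ± 0.0673 in chow, 0.795% ± 0.0622 in HFD and 0.847% ± 0.0534 in fasted mice (SD, n = 6 each). The nuclear members summed to 4843 ± 135, 4853 ± 186 and 4902 ± 169 CPM. No difference in these sums between diets was larger than the pooled SD with all columns. With low columns left out the mitochondrial share at 24 h was 2.02% in fasted and 1.85% in chow mice, and this difference of 0.167 percentage points was larger than the pooled SD of 0.147. The assembly factors then summed to 115 CPM in fasted and 123 CPM in chow mice, a difference of -7.85 against a pooled SD of 4.78. The nuclear sums of complexes I to V and Atp5if1 differed by less than their pooled SD. Over the whole mitochondrial chromosome, with its ribosomal and transfer RNA genes, the share at 24 h was 10.7% in fasted and 10.9% in chow mice (pooled SD 2.07). With low columns left out it was 9.37% in fasted and 8.76% in chow mice (pooled SD 0.559).

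**Figure D5:**
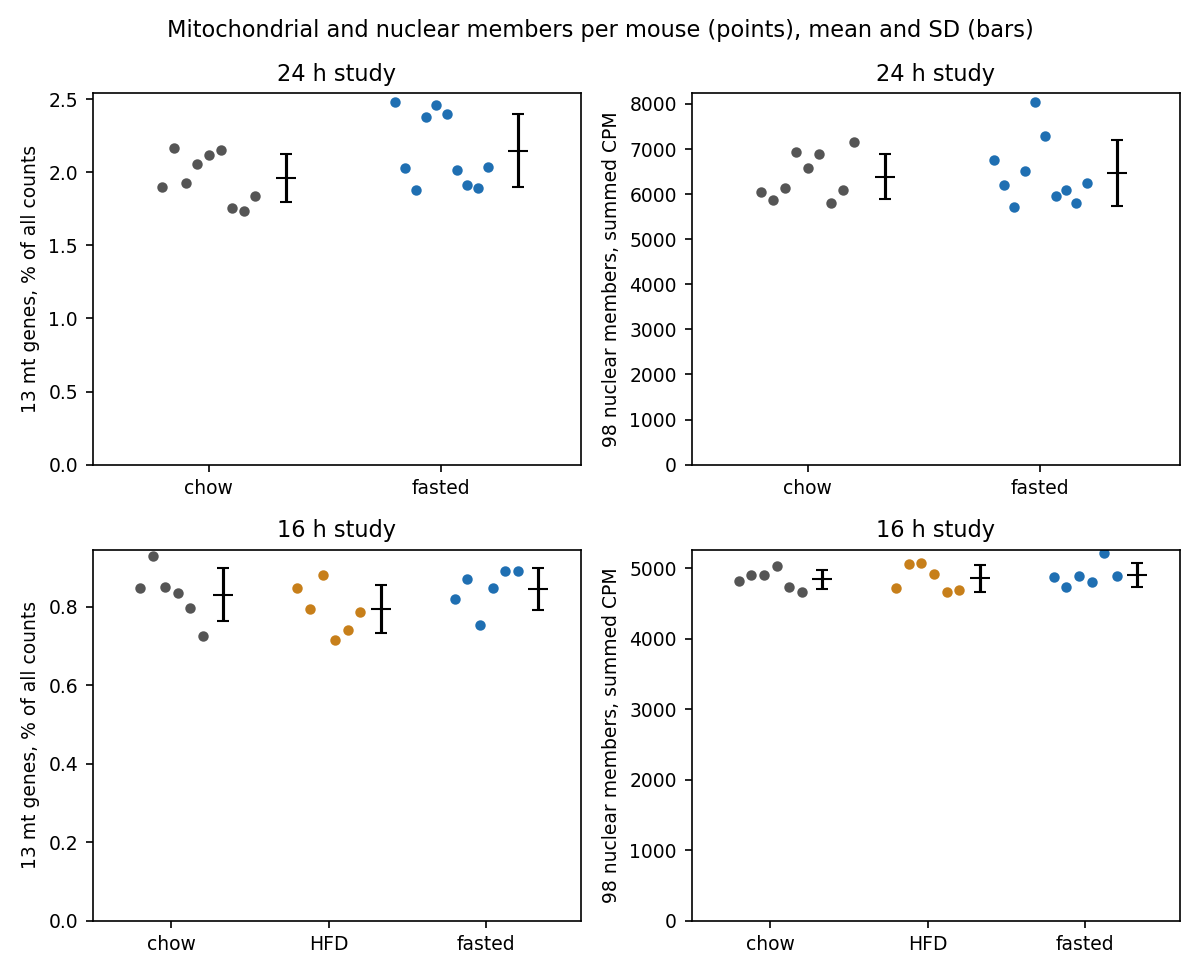
Share of counts on the 13 mitochondrial protein-coding genes (left, %) and summed CPM of the 98 nuclear members (right) for each mouse (points), with mean and SD (bars), by diet and study. Chow mice of the 24 h study lie at 1.73% to 2.16% and fasted mice at 1.88% to 2.48%.

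Around the complexes, 8 lists hold genes that feed, build or restrain them. At 24 h 17 of their 217 genes tested were called by edgeR (11.4% of all genes), 18 of 225 by DESeq2 (10.4%) and 6 of 217 by limma (2.89%). Leaving out 1 mouse at a time, 12 of the 17 edgeR calls held each time and 5 were lost at least once. Of 13 genes of pyruvate entry 2 rose: Pdk4, a kinase that switches off pyruvate dehydrogenase, was at 21.9 ± 7.45 CPM in fasted and 7.73 ± 0.983 in chow mice (log2 fold change 1.56, edgeR adjusted p = 2.48e-06), and Pdk2 had a log2 fold change of 0.48. The lowest fasted mouse (13.5 CPM) lay above the highest chow mouse (9.67 CPM) for Pdk4. Of 16 carriers, cytochrome c and uncoupling proteins 2 rose, Ucp2 by 0.93 and Ucp3 by 0.43 on the log2 scale, both inner-membrane proteins of the uncoupling family. Ucp2 had 46.3 to 74.8 CPM in fasted and 21.0 to 45.2 in chow mice.

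Of 15 genes of the tricarboxylic acid cycle, which supplies NADH and succinate, 2 rose, Idh2 by 0.42 and Ogdhl by 0.42. Of 31 genes of mitochondrial transcription, replication and RNA processing 3 fell: Mgme1, a nuclease for mitochondrial DNA, with a log2 fold change of -0.47 (edgeR adjusted p = 0.000115), Tfb1m, which methylates the ribosomal RNA of the mitochondrion, with -0.42, and Fastkd2 with -0.22. For Mgme1 the fasted mice had 3.26 to 4.28 CPM and the chow mice 4.96 to 6.08, without overlap. Of 44 other assembly factors Bcs1l, which inserts the Rieske protein into complex III, fell with -0.30 and Cox19, a copper-handling factor for complex IV, rose by 0.17. Of 77 genes of the mitochondrial ribosome 4 rose (Mrpl41 by 0.32, Mrps26 and Mrpl9 by 0.21 and Mrpl2 by 0.19) and Mrps35 fell with -0.14. Of 16 regulators in the nucleus Sirt1, a deacetylase, rose by 0.15, a call lost with low columns left out (edgeR adjusted p = 0.0566). Under limma 12 of the 17 edgeR calls were lost, while Pdk4, Pdk2, Ucp2, Idh2 and Ogdhl remained called. The lists of transcription, of assembly factors and of regulators had 0 limma calls. The ribosome had 1, of a gene not named above, and its named genes had limma adjusted p from 0.437 (Mrpl41) to 0.985 (Mrps35). Sirt1 was lost without mouse 1424, 1431, 1432, 1434, 1441, 1443 or 1451 (edgeR adjusted p up to 0.0724). Ucp3 was lost without 1422, 1424, 1432, 1433, 1435, 1443, 1444, 1451 or 1452 (up to 0.0672). Mrps26 was lost without 1423, 1424, 1431, 1434, 1435, 1443, 1444, 1451 or 1454 (up to 0.0692). Mrpl2 was lost without 1422, 1423, 1424, 1431, 1434, 1435, 1443, 1444, 1451 or 1452 (up to 0.0777), and Mrps35 without 1423, 1441, 1442 or 1453 (up to 0.0550). Among the ribosomal and transfer RNA genes of the mitochondrion edgeR and limma tested 5 and DESeq2 tested 10, and each called 0 and had 0 at an unadjusted p under 0.05.

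After 16 h no member was called in any comparison. Comparing fasted and chow mice, edgeR called 0 of 102 members and 0.0% of all 29746 genes. An unadjusted p under 0.05 was found for 3 members, against 7.62% of all genes. DESeq2 called 0 of 107 members, with 3 at an unadjusted p under 0.05 (6.69% of all genes), and 0.0472% of all genes. limma called 0 members and 0.0% of all genes, with 11 members at an unadjusted p under 0.05 (12.3% of all genes). Besides the 5 members untested in the 24 h study, mt-Co2, mt-Atp6, mt-Co3 and mt-Nd3 had too few counts here. For 99 of 102 members the 95% interval lay within 0.5 of 0 on the log2 scale.

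Ndufb2 had the lowest p of the members in this comparison, given as a value since it did not pass. Chow mice had 23.5, 26.7 and 27.2 CPM (minimum, median, maximum) and fasted mice 18.3, 21.5 and 26.2 CPM. Of the fasted mice 5 of 6 lay below the lowest chow mouse, and mouse 9 lay at 26.2. The log2 fold change was -0.24 (SE 0.06, unadjusted p = 0.000382, edgeR adjusted p = 0.470). HFD mice had 23.3, 24.1 and 26.6 CPM, a log2 fold change of -0.05 against chow and, for fasted against HFD mice, -0.19 (edgeR adjusted p = 0.162). Ndufab1 was next, with 21.5 to 25.4 CPM in fasted and 24.3 to 27.6 CPM in chow mice, a log2 fold change of -0.11 (edgeR adjusted p = 0.565). Cox5b-ps, annotated as protein-coding and close in sequence to Cox5b, was at -0.47 (edgeR adjusted p = 0.630). The lowest p among members above 0 were those of Uqcrfs1, the Rieske protein, at 0.07, Atp5f1a at 0.08 and Atp5mc3 at 0.07, with unadjusted p of 0.0504, 0.0703 and 0.104 by edgeR. Cox6a2 had 0.364 to 1.52 CPM in fasted and 0.701 to 0.952 in chow mice, a log2 fold change of 0.16 (edgeR adjusted p = 0.884), beside 0.93 for Itgad (edgeR adjusted p = 0.579).

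HFD and chow mice were compared with the same chow mice as above, so the comparisons are not independent. edgeR called 0 of 102 members and 0.0% of all genes, with 4 members at an unadjusted p under 0.05 against 9.8% of all genes. DESeq2 called 0 (0.0124% of all genes), with 3 members at an unadjusted p under 0.05 (8.47% of all genes). limma called 0 (0.0% of all genes), with 0 members at an unadjusted p under 0.05 (1.57% of all genes). Ndufaf4, an assembly factor of complex I, had 22.4 to 25.2 CPM in HFD and 20.5 to 24.9 in chow mice, a log2 fold change of 0.11 (edgeR adjusted p = 0.507). Ndufb3 was at 0.10 and Atp5mj, a small membrane subunit of complex V, at 0.09. Ndufb8 was at -0.14, Ndufab1 at -0.07 and Atp5mg, the g subunit of complex V, at -0.13, with unadjusted p of 0.0522, 0.0642 and 0.0653 by edgeR.

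Fasted and HFD mice differed in 65 genes by edgeR (0.219% of those tested), none of them among the 102 members, of which 5 had an unadjusted p under 0.05 against 11.4% of all genes. DESeq2 called 0 members (0.879% of all genes), with 5 at an unadjusted p under 0.05 (9.47% of all genes). limma called 0 members (0.0% of all genes), with 17 at an unadjusted p under 0.05 (13.5% of all genes). Atp5mc1, a gene of the c ring, had 46.4 to 50.7 CPM in fasted and 50.6 to 53.8 in HFD mice, a log2 fold change of -0.11 (edgeR adjusted p = 0.238), and the groups only just overlapped. Ndufaf4 was at -0.11 (edgeR adjusted p = 0.391). Above 0 were Ndufv3, a complex I subunit, at 0.09 (edgeR adjusted p = 0.350), Atp5mg at 0.11 and Cox6a2 at 0.33, with unadjusted p of 0.0253, 0.113 and 0.157.

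After 16 h CPM overlapped between the diets for every member tested, while it did not overlap for 0.289% (fasted and chow), 0.662% (HFD and chow) and 1.09% (fasted and HFD) of all genes. Above 0 were 77, 77 and 45 of 102 members in these comparisons, against 48.7%, 47.3% and 50.4% of all genes. With total counts and no scaling factors these were 62, 56 and 56 members against 41.5%, 36.6% and 54.2% of all genes. Under limma with all columns they were 14, 72 and 15 members against 15.5%, 49.96% and 17.1% of all genes, so the direction of the first comparison turned. In this fit each column of a mouse counts alike. The smallest column of the 16 h fasted group held 2994 counts, that of chow 683173 and that of HFD 8536805. The 11 and 17 members at an unadjusted p under 0.05 by limma come from this fit as well. Under limma with low columns left out, the column of 2994 counts among them, 61, 60 and 51 members were above 0, against 47.3%, 38.6% and 57.8% of all genes.

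By complex the 16 h medians of nuclear subunits and of assembly factors were all within 0.1 of 0. For fasted against chow mice they were 0.03 in complexes I and II, 0.04 in complexes III, IV and V and -0.01 in the assembly factors. For HFD against chow mice they were 0.03, 0.02, 0.05, 0.05 and 0.05 in complexes I to V and 0.06 in the assembly factors. Fasted against HFD mice gave -0.01 in complex I, 0.01 in complex II, -0.02 in complexes III and IV, 0.01 in complex V and -0.08 in the assembly factors. Atp5if1 was at 0.09, -0.03 and 0.12 in the same order of comparisons. The 5 well-counted mitochondrial genes of complex I had medians of -0.03, -0.12 and 0.12. All 7 well-counted mitochondrial genes together had medians of 0.02, -0.07 and 0.08. In HFD against chow mice all 7 were below 0 by edgeR, and 6 by limma. edgeR, DESeq2 and limma called 0 of them in each 16 h comparison, with 0 at an unadjusted p under 0.05. As an example, mt-Nd1 had 666 to 913 CPM in chow, 643 to 843 in HFD and 676 to 910 in fasted mice. None of the 8 lists around the complexes had a called gene in the 16 h study by edgeR, with 15, 19 and 35 of 219 genes at an unadjusted p under 0.05 in the 3 comparisons, against 7.62%, 9.8% and 11.4% of all genes. DESeq2 called 0, 0 and 3 of 225 (0.0472%, 0.0124% and 0.879% of all genes), and limma 0 in each (0.0% of all genes).

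Over all mice the summed counts ranged from 57962237 to 161577364. Of 185 columns 27 were low in depth or in genes found, 23 of them in the 24 h study. Neuron markers summed to 3878 to 5308 CPM per mouse in the 24 h study, and no marker of the 10 lists was at 0 in a group. Choroid plexus markers varied more at 24 h, with 37.4 to 1785 CPM in chow and 35.5 to 4131 in fasted mice. Hypothalamus markers had 12.3 to 206 CPM in chow and 33.0 to 280 in fasted mice. Single columns held 49386 to 65973281 counts in 24 h chow and 574309 to 63494453 in 24 h fasted mice. Deeper columns weigh more in the sum of a mouse, and how far the mix of regions differed between mice was not tested. Of 70 markers 12 were called at 24 h by edgeR (11.4% of all genes), 12 by DESeq2 (10.4%) and 4 by limma (2.89%). By edgeR 9 were lower in fasted mice, 4 of 7 of microglia, 3 of 6 of endothelium and 2 of 7 of astrocytes (Aqp4 and Gja1), and 3 were higher, Agt of astrocytes, Agrp of the hypothalamus and Mobp of oligodendrocytes. Markers of microglia summed to 95.8 to 157 CPM in fasted and 113 to 164 in chow mice, those of endothelium to 156 to 252 in fasted and 198 to 314 in chow mice, and those of astrocytes to 3681 to 5153 in fasted and 3630 to 4558 in chow mice. Their part in the values of Ndufb2, Cox6a2 and Ndufa4l2 was not tested. In the labels the superior colliculi of chow mouse 1423 and fasted mouse 1454 are each said to be in the other's tube. By the study's methods the sample records were corrected for this exchange, and whether the headings of the count columns follow the corrected records is not given in the sources used here. Among chow mice Itgad was highest in mouse 1423 (0.971 CPM, the next 0.383). Among fasted mice it was lowest in mouse 1454 (2.07 CPM, the next 2.26). Both mice were in the correlations of Itgad and Cox6a2 over all mice of a diet. Whether the exchange bears on these values was not tested. Without mice 1423 and 1454 and fasted mouse 1455, which the names of read files tie to the same exchange, Ndufb2 and Cox6a2 remained called and Ndufa4l2 did not (adjusted p = 0.0566).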

How the data were processed

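Members and lists were chosen with earlier results of these data known. RNA was prepared with a kit for small samples and NEBNext kits with depletion of ribosomal RNA, and sequenced in pairs of 51 bases (16 h) or 61 bases (24 h). The submitters' processing notes name bcl2fastq 2.20.0, STAR 2.7.3a, R 4.1.3 and GRCm39, and per the methods the authors counted genes with STAR. The deposited table holds raw counts per gene. Its 185 columns carry the mouse but not the region, no column was left unmapped, and the table holds no columns of comparisons. The 5 columns of each mouse were added up. edgeR 4.0.16 (filterByExpr, TMM, quasi-likelihood test, R 4.3.3) was fitted to each study apart over all genes, and genes with a Benjamini-Hochberg adjusted p under 0.05 were called. DESeq2 1.42.0 and limma 3.58.1 (log2 CPM with a prior count of 2, mean of the 5 columns) were alternatives, as were other scaling, no filter, fits without columns under 1000000 counts or under 16000 genes in a draw of 500000 counts, covariates, and each mouse left out. The limma fit without low columns, the fit without scaling factors and the fit with the leading digits of the mouse number were added after the data were seen. On simulated data with 200 genes changed 2-fold, far more than most members differed, edgeR recovered 183 for 16 h fasted against chow and 178 for 24 h.

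Named members were, by rule, called members whose mean log2 CPM was not negative (up to 8 each way), otherwise the 3 of lowest p each way. Added to these were the leader per length of each complex, pairs of isoforms, the c ring, Atp5if1, the mitochondrial genes and up to 4 called genes of each list. Cox6b2, Ndufab1 at 24 h, Mrps35, 4931431B13Rik and genes overlapping a called member were named after their values were seen. Cages and mice are the only replication, and regions were not analysed apart. The p-values of the 16 h study treat cage mates as separate. Nuclear copies were found with blastn 2.17.0 and exact windows on GRCm39.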

Additional observations from a re-analysis of the deposited data

Results flagged for a closer look

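Among 215 groups of mice tested over 43 values, 15 held a mouse far from the others of its diet, where chance gives about 1 in 20. In the 16 h fasted group, mouse 11 had 754 CPM of Atp5f1b (the others 660 to 695), 0.387 of Cox5b-ps (the others 0.138 to 0.203) and 5219 summed CPM of the nuclear members (the others 4726 to 4895). Mouse 12 had 26.9 CPM of Ndufaf7 and mouse 10 had 29.6 CPM of Uqcr10, both below the others. In the HFD group, mouse 17 had 27.0 CPM of Atp5mj and 51.3 CPM of Cox6a1, both the lowest, mouse 15 had 14.6 CPM of Ndufb3, the highest, and mouse 18 had 4.15 CPM of Ndufb8, the lowest. In the 16 h chow group, mouse 6 had 2.12 CPM of Cox7a1 and mouse 2 had 344 CPM of mt-Nd2, both the highest. In the 24 h study, chow mouse 1451 had 2.31 CPM of Ndufa4l2 (the others 1.42 to 1.85), and the call of this gene was lost without that mouse. Chow mouse 1443 had 1.20 CPM and fasted mouse 1453 had 0.962 CPM of Cox8b, each the highest of its diet, and chow mouse 1441 had 0.855 CPM of mt-Atp6. The causes were not tested.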

How the results depend on the processing

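With low columns left out 5 members were called at 24 h, as with limma and low columns left out, against 3 in the result above and 1 with limma on the mean of all 5 columns. Leaving out single mice gave 2 to 4 called members at 24 h and 0 in each 16 h comparison. Cox6a2 was called under every alternative run, Ndufb2 under all but limma with all columns (adjusted p = 0.0760), and Ndufa4l2 was also lost with no filter (adjusted p = 0.0567) and with the digits of the mouse number (adjusted p = 0.0504). The 16 h nuclear median for fasted against chow mice was -0.29 under limma with all columns, and for fasted against HFD mice -0.32. The medians over all genes moved likewise, to -0.25 and -0.26, and with low columns left out the values of all genes were -0.006 and 0.02. Without 1 mouse, the nuclear median at 24 h ran from -0.03 to 0.09 and that of the 7 mitochondrial genes from 0.13 to 0.20. No called value changed sign. No mouse number recurs between diets. At 24 h the first 3 digits of the number do, though what they mark is not given in the sources used here, and a fit with them as a covariate called 2 members, Cox6a2 and Ndufb2. At 16 h the round of cages as a covariate and cage sums called 0. Depth limits Cox8b and Cox7b2, with under 1000 counts in each study. Why the 6 mitochondrial genes had few counts was not tested.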
